A study of Mus musculus with 6 samples.

Results

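Of the 32285 genes in the single-nucleus count matrices of mouse prelimbic cortex, 7 transcripts are described here. *Malat1*, *Neat1*, and *Miat* are long noncoding RNAs that stay in the nucleus, and *Gm42418*, *AY036118*, *Gm26917*, and *Cmss1* were listed together as transcripts of, or next to, ribosomal RNA (rRNA) genes. All 7 were detected in each of the 6 libraries. They were chosen by name with their levels in cell classes, in background droplets, and in the 6 libraries known, so levels by cell class, by background, and by library are given as a description with no test. The comparisons of Run with Sed and of SI with GH were tested, though on libraries whose levels were known when the transcripts were chosen.

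*Malat1* is a long RNA of nuclear speckles, the bodies that hold splicing factors. *Neat1* is the scaffold RNA of paraspeckles, and *Miat* is a nuclear RNA of neurons that binds splicing factors. Ribosomal RNA is made in the nucleolus as a long precursor that is cut into mature rRNAs, which leave for the cytoplasm inside ribosomes and carry no long poly(A) tail. *Gm42418*, *AY036118*, and *Gm26917* are predicted noncoding genes of unknown function, while *Cmss1* codes for a protein that is related to a yeast factor of the small ribosomal subunit.

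The gene annotation used here bore out the second group's label for only part of it. In mm10, *Gm42418* (ENSMUSG00000098178, plus strand) spans chr17:39846958-39848788 and *AY036118* (ENSMUSG00000105361, minus strand) spans chr17:39847113-39848035. Each lies wholly inside the rRNA gene CT010467.1 on the minus strand at chr17:39846353-39848827, which is not among the counted genes. All 923 bases of *AY036118* are the exact reverse complement of bases in *Gm42418*. As annotated, *AY036118* matches the rRNA transcript of 1849 bases on the same strand over its whole length. *Gm42418* shares an exact stretch of 1244 bases with the opposite strand of that transcript. These strands are those of the annotation, and which strand carries the sequence of mature rRNA was not tested. RefSeq, a second annotation, places the pseudogene *Rn18s-rs5*, also of 1849 bases, at chr17:39846354-39848202. *Gm26917* (ENSMUSG00000097971, plus strand, chr17:39843013-39846341) ends 11 bases before the rRNA gene and shares no run of 20 bases with its transcript. *Cmss1* (ENSMUSG00000022748, minus strand, chr16:57302000-57606864) also shares none in its spliced transcript, while its introns were not searched. Over 72.2% of its span *Cmss1* is overlapped by *Filip1l*, a counted gene on the other strand, so reads there are separated by strand alone. Only this rRNA transcript of 1849 bases was compared, so overlap with other parts of the long rRNA precursor was not tested. The stretches below are the most A-rich windows of 20 bases, with those bases in capitals, and they are shown because the library kit captures RNA by its runs of A. The second line of the pair is the same place read on the other strand, where the capitals mark the same 20 bases.
AY036118: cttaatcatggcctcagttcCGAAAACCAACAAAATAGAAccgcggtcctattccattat
Gm42418: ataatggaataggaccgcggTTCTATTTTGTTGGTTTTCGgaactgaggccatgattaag
Gm42418 A-rich stretch: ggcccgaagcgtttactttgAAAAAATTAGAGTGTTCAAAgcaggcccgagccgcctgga
Gm26917: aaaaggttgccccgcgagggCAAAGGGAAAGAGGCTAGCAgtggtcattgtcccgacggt
The pair lies at chr17:39847221-39847280, the *Gm42418* A-rich stretch at chr17:39847147-39847206 (plus strand), and the *Gm26917* stretch at chr17:39845136-39845195 (plus strand), all in single-exon transcripts. These windows are ordinary in their content of A, since 43.7% of the 141733 annotated mouse transcripts have a window with as many A as that of *AY036118*, 77.7% as that of *Gm42418*, and 95.4% as that of *Gm26917*. Over the 923 shared bases, which are 50.4% of *Gm42418*, reads of *Gm42418* and *AY036118* are separated by strand alone, so each value of the pair depends on how the counting used strand, which is not given in the sources used here.

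The nuclear-retained genes are elsewhere. *Malat1* (ENSMUSG00000092341) lies at chr19:5795690-5802672 and *Neat1* (ENSMUSG00000092274) at chr19:5824708-5845478, both on the minus strand and both single-exon in the transcript examined. *Miat* (ENSMUSG00000097767, minus strand, chr5:112213228-112229395) is overlapped over 86.2% of its span by the antisense gene *Gm26953*. *Malat1* carries a run of 12 A, shown in capitals, that starts 6674 bases into the transcript and leaves 298 bases after it.
Malat1 A-rich stretch: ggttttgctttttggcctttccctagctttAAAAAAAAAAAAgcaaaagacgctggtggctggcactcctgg
It lies at chr19:5795958-5796029, and its most A-rich window of 20 bases holds 17 A. The same is true of *Neat1*, and 5.41% of transcripts have a window with as many. Whether any of these stretches was a capture site was not tested.

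The tissue came from C57BL/6 male offspring of mothers that were caged with a running wheel after birth (Run) or without one (Sed), and that were group housed (GH) or socially isolated (SI) after weaning. Cohort 1 gave a Run GH and a Sed GH library from mice that had been tested in the tube test. The paper describes these mice as chosen by rank, at the top and bottom of their group. Cohort 2 gave a Run and a Sed library of either housing from mice with no behavioral testing. Each library pooled nuclei of 3 mice, so a group has 1 library per cohort and the spread between mice was not measured. The age field of the labels reads P21, the day of weaning in the methods, which describe adult males at tissue collection. Below, series of 6 values give cohort 1 before cohort 2, within a cohort GH before SI, and within a housing Run before Sed.

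Both libraries of cohort 1 stood apart. They held 159049013 and 188952936 UMIs (unique molecular identifiers, each a counted RNA molecule), against 19134955 to 69344415 in cohort 2, and only 32.9% and 19.02% of these lay in nuclei, against 56.4 to 61.9%. Nuclei needed 500 to 4000 genes, at most 1% mitochondrial UMIs, and a minimum of UMIs set per library. In cohort 1 the minimum decided which barcodes counted as nuclei, since 82376 and 103391 passed the other limits and 8163 and 5142 also passed the minimum, while in cohort 2 5687 to 10532 passed without it. This left 4997 to 9936 nuclei per library, with a median of 1637 UMIs in Sed GH of cohort 2 and 3396.5 to 6250 in the others. Barcodes with 30 UMIs up to that minimum were taken as background droplets, whose median was 1070 and 1202 UMIs in cohort 1 and 82 to 302 in cohort 2. Pairs of libraries shared 5 to 22 nucleus barcodes, at most 0.428% of a library. Nuclei were grouped into classes from marker genes, with the 7 transcripts left out of the clustering, and the classes are named here pyramidal-like, inhibitory-like, astrocyte-like and so on, and below by the short form. The 8 astrocyte markers summed to 16849 to 19155 CPM (counts scaled to 1000000 UMIs) in astrocytes and to 599 to 816 CPM in pyramidal neurons, while the 8 pyramidal markers summed to 3545 to 3863 CPM in pyramidal neurons and to 535 to 1195 CPM in astrocytes.

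The 7 transcripts together took 3.603, 4.26, 9.44, 11.3, 9.55, and 11.8% of the UMIs in nuclei. *Malat1* alone held 2.80 to 11.7% of them. The 4 transcripts of the rRNA group held 0.768 and 1.15% in cohort 1 and 0.0405 to 0.0595% in cohort 2. In background droplets the same 4 held 3.69 and 4.45%, then 0.286, 0.612, 0.445, and 0.836%, a larger share than in nuclei in every library.

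*Malat1* was found in 100% of pyramidal nuclei in each library. Its level over all nuclei was 28022 and 30670 CPM in cohort 1 and 93766, 112523, 94762, and 116946 CPM in cohort 2, so the cohorts did not overlap. Within either cohort, every Sed library was above every Run library. The gap between cohorts was 3.35-fold in Run GH and 3.67-fold in Sed GH, with cohort 2 higher. Among classes *Malat1* was highest in astrocytes, at 1.63 ± 0.18 times its level over all nuclei (SD, n = 6 libraries), followed by oligodendrocytes at 1.28 ± 0.31. Astrocytes were above oligodendrocytes in all 6 libraries by more than the SD of the difference, whereas the next classes, pyramidal neurons (0.99), microglia (0.91), inhibitory neurons (0.90), and oligodendrocyte precursors (0.78), each differed from its neighbor by less. Among groups of neurons, called after a leading gene, it was highest in the *Rxfp1* group (1.33 ± 0.10) and lowest in the *Tshz2* group (0.67 ± 0.13).

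*Neat1* was highest in oligodendrocytes and astrocytes among the classes found in all 6 libraries. In astrocytes it measured 297, 429, 267, 420, 253, and 248 CPM, from 374, 297, 147, 40, 134, and 55 counts. In pyramidal neurons it measured 5.802, 6.07, 4.87, 6.92, 4.53, and 4.47 CPM. No library of either class came near the other, and astrocytes were 51.2- to 70.7-fold higher within a library. The 95% counting intervals of these ratios, on the log2 scale, ran from 5.27 in Sed SI of cohort 2 at the lowest to 6.51 in Sed GH of cohort 2 at the highest. Oligodendrocytes held 408, 548, 211, 270, 505, and 721 CPM, though Sed GH of cohort 2 had only 8 such nuclei and 2 counts. Relative to all nuclei, oligodendrocytes (32.6 ± 18.5 times) and astrocytes (22.5 ± 5.1) could not be ordered beyond their spread, and astrocytes exceeded microglia (6.47 ± 4.25) in all 6 libraries. Oligodendrocyte precursors stood at 1.91 ± 2.02, above all nuclei in 3 of 6 libraries. Leptomeningeal nuclei, which were named in cohort 1 only, held 641 and 616 CPM, above the oligodendrocytes of the same libraries.

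The share of nuclei with a *Neat1* UMI gave the same order at equal depth. After each nucleus was thinned to 1000 UMIs, 23.4, 26.2, 18.6, 40, 20.1, and 24.2% of astrocytes and 0.673, 0.511, 0.705, 0.725, 0.507, and 0.370% of pyramidal neurons had one. Thinning left out 58 of the 93 astrocytes and 623 pyramidal neurons of Sed GH in cohort 2, and no nucleus of these classes elsewhere. Without thinning, the shares were 30.8 to 67.6% in astrocytes (median depth 963 to 4587 UMIs), 1.33 to 4.14% in pyramidal neurons (1696 to 6803 UMIs), and 0.235 to 2.14% in background droplets. Had each nucleus held the *Neat1* share of background at the size of a median droplet, its expected count would follow, and the observed count was 39.6 to 173 times that in astrocytes and 1.68 to 5.51 times in pyramidal neurons.

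*Miat* showed the opposite order. Pyramidal neurons held 339, 385, 241, 167, 226, and 195 CPM, inhibitory neurons 171, 192, 103, 97.8, 93.7, and 79.5 CPM, and astrocytes 88.2, 85.3, 34.6, 10.5, 41.6, and 9.01 CPM. Within each library pyramidal neurons stood above inhibitory neurons, and the order of these neighbors, 1.09 ± 0.01 against 0.51 ± 0.07 times the level over all nuclei, exceeded the spread. The astrocyte values rested on 111, 59, 19, 1, 22, and 2 counts, which were 0.958 to 2.24 times the count expected from background droplets, so a level above background was not shown in every library. In pyramidal neurons the same ratio was 9.75 to 48.7. Among groups of neurons *Miat* was highest in the *Npsr1* group (1.51 ± 0.09), above the *Scn7a* group (1.22 ± 0.07) in all 6 libraries, and lowest in PV interneurons (0.29 ± 0.04), below SST interneurons (0.62 ± 0.09) in all 6.

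**Figure D1:**
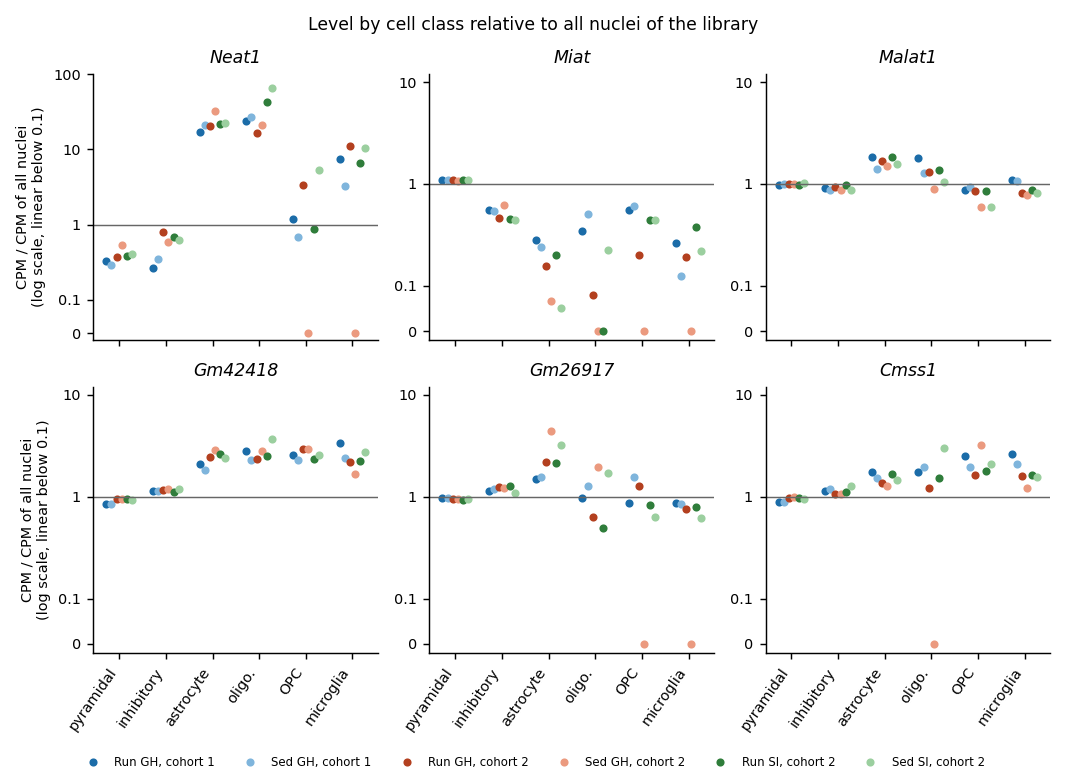
Level of *Neat1*, *Miat*, *Malat1*, *Gm42418*, *Gm26917*, and *Cmss1* in 6 cell classes, as CPM of the class divided by CPM of all nuclei of the same library (symmetric log axis), with a point for each of the 6 libraries. *Neat1* lies far above 1 in astrocytes and oligodendrocytes and below 1 in pyramidal neurons, *Miat* lies above 1 in pyramidal neurons only, and *Gm42418* lies above 1 in every glial class.

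*Gm42418* carried most of the counts of the rRNA group. Over all nuclei it measured 7065 and 10636 CPM in cohort 1 and 277, 382, 390, and 427 CPM in cohort 2. The lowest library of cohort 1 was thus far above the highest of cohort 2. *AY036118*, on its other strand, measured 151, 200, 14.4, 39.0, 21.9, and 31.4 CPM, and its cohorts did not overlap either. *Gm26917*, the neighbor upstream, measured 204, 369, 55.1, 69.4, 49.1, and 62.2 CPM. *Cmss1*, the protein-coding gene, measured 264, 331, 58.3, 74.3, 63.5, and 74.8 CPM, and neither gene's cohorts overlapped.

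Between cohorts, *Gm42418* was 25.5-fold higher in Run GH of cohort 1 than of cohort 2 and 27.9-fold higher in Sed GH, a difference above that of 100% of the other genes compared. The folds were 10.4 and 5.14 for *AY036118*, 3.71 and 5.32 for *Gm26917*, and 4.52 and 4.46 for *Cmss1*. *Miat* (1.41 and 2.27) and *Neat1* (1.35 and 1.59) differed less. Cohort, behavioral testing, choice of mice by rank, background level, and sequencing depth changed together between these libraries and cannot be told apart.

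*Gm42418*, *AY036118*, and *Cmss1* were lower in nuclei than in the droplets around them in all 6 libraries. Background droplets held 35223, 42767, 2549, 5267, 3987, and 7361 CPM of *Gm42418*, which is 4.02- to 17.3-fold the level of nuclei in the same library. The mean log2 ratio of nuclei to background was −3.13 ± 0.82 for *Gm42418*, −2.72 ± 0.67 for *AY036118*, and −2.10 ± 0.58 for *Cmss1* (SD, n = 6). The median of all genes lay between −0.09 and 0.07 per library, with 5th percentiles of −1.15 and −0.74 in cohort 1 and −3.37 to −2.76 in cohort 2. The percentage of genes with a lower ratio was 0.137 to 2.65% for *Gm42418* and 0.273 to 6.66% for *AY036118*, and for *Cmss1* 0.547 and 0.618% in cohort 1 and 7.40 to 17.3% in cohort 2. The 13 mitochondrially encoded mRNAs, which mark cytoplasm, were also lower in nuclei in every library, with medians from −4.52 to −2.26. Nuclei, unlike droplets, were limited to 1% mitochondrial UMIs. Droplets of cohort 2 held 2.28 to 4.14%, so a lower summed share in nuclei was fixed there by that limit. Droplets of cohort 1 held 0.191 and 0.0754%, under the limit.

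*Gm26917* did not follow its neighbors. It measured 51.9, 62.9, 32.5, 64.8, 36.0, and 50.2 CPM in background droplets, and its log2 ratio of nuclei to background was 1.98, 2.55, 0.76, 0.10, 0.45, and 0.31. Nuclei were above background in 5 libraries by more than counting error, and the interval included 0 in Sed GH of cohort 2. *Miat* was higher in nuclei in all 6 libraries (0.61 ± 0.13). *Malat1* was lower in 3 and higher in 3 (−0.08 ± 0.28), and *Neat1* was lower in 5 libraries (−1.04 ± 0.80), with −0.12 and 0.05 in cohort 1 and −1.82 to −1.22 in cohort 2. When only barcodes under 100 UMIs served as background, *Miat* (−0.41) and *Gm26917* (−0.89) changed sign, whereas *Gm42418* (−2.15) and *Cmss1* (−1.34) did not.

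**Figure D2:**
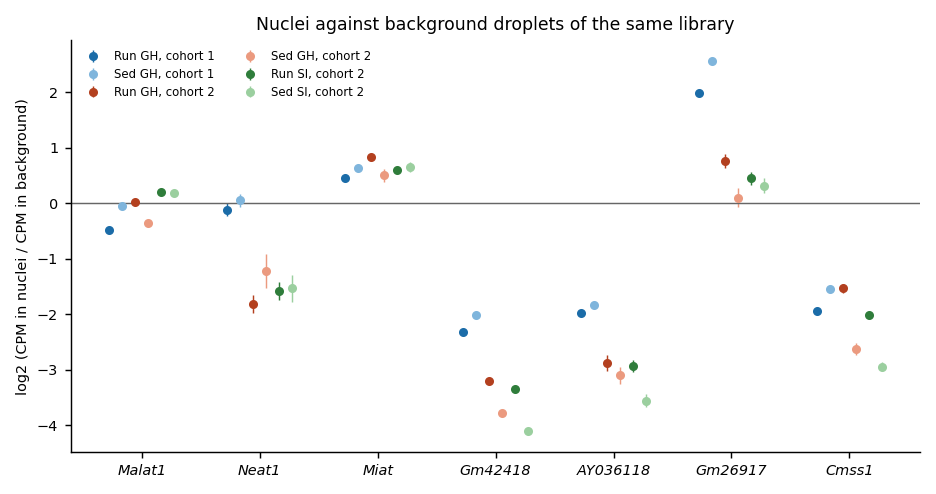
Log2 ratio of CPM in nuclei to CPM in background droplets for the 7 transcripts, with a point for each of the 6 libraries and its 95% counting interval. *Gm42418*, *AY036118*, and *Cmss1* lie below 0 in all 6 libraries, *Miat* lies above 0 in all 6, and *Gm26917* spans 0.10 to 2.55.

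The share of UMIs taken by *Gm42418* was lower in barcodes large enough to be nuclei than in background droplets. It was not highest in the smallest barcodes, with 1.08% at 1 to 10 UMIs in Run GH of cohort 1. In Run GH of cohort 1 it was 3.82% at 1000 to 2000 UMIs, 1.62% at 2000 to 4000, 0.710% at 4000 to 8000, and 0.467% at 8000 or more. In Run GH of cohort 2 it was 0.285% at 300 to 1000 UMIs, 0.0576% at 1000 to 2000, and 0.0194% at 8000 or more. *Gm26917* moved the other way at the step from droplets to nuclei of Run GH in cohort 1, with 0.00457% at 1000 to 2000 UMIs and 0.0229% at 2000 to 4000, though its share was also high in barcodes of 30 to 100 UMIs (0.0535%). *Malat1* varied little there, from 3.81% at 1000 to 2000 UMIs to 2.90% at 8000 or more. The mitochondrial share of the same barcodes went from 0.191 to 0.0211%.

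**Figure D3:**
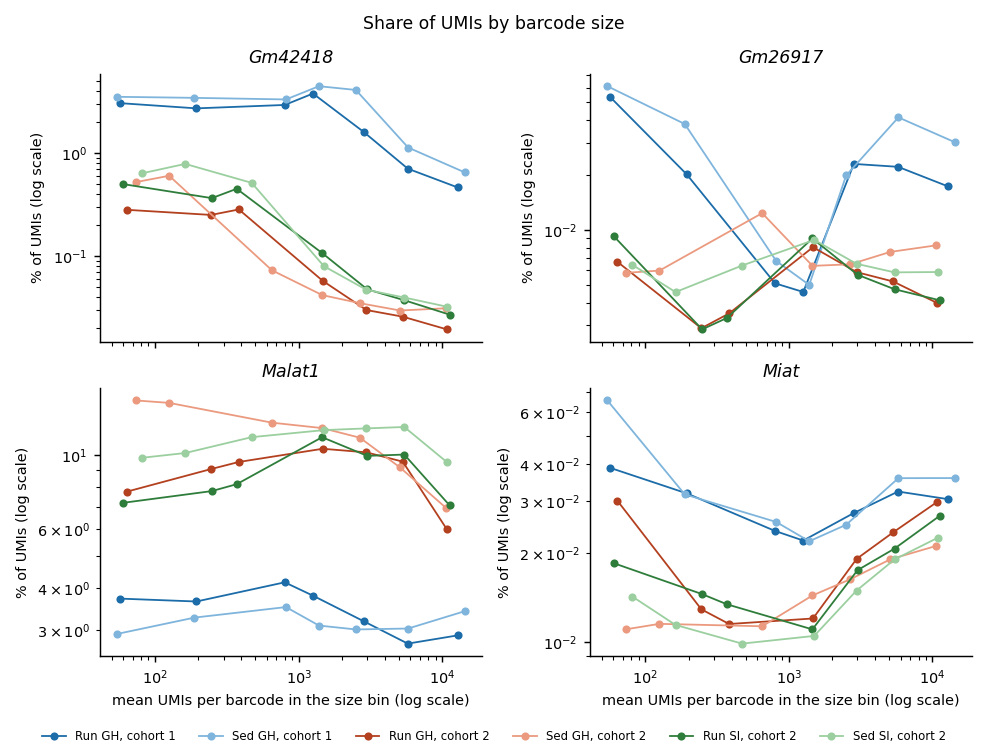
Share of UMIs (percent, log axis) taken by *Gm42418*, *Gm26917*, *Malat1*, and *Miat* against the mean UMIs of barcodes in each size bin (log axis), with a line for each of the 6 libraries. *Gm42418* drops at the largest barcodes, from 3.82% at 1000 to 2000 UMIs to 0.467% at 8000 or more in Run GH of cohort 1, and at a given size its cohort 1 lines lie above its cohort 2 lines.

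If each nucleus held as many *Gm42418* UMIs as an average background droplet does at the median droplet size, these would make up 83.3, 69.2, 62.0, 58.7, 67.3, and 63.7% of the *Gm42418* UMIs counted in nuclei. The same figure was 36.6 to 65.8% for *AY036118*, 19.5 to 64.0% for *Cmss1*, 3.24 to 23.3% for *Malat1*, and 2.93 to 4.84% for *Gm26917*. For each count of *AY036118*, background droplets held 59.4, 59.8, 24.1, 15.7, 23.8, and 19.9 counts of *Gm42418*, and nuclei held 46.9, 53.1, 19.2, 9.80, 17.8, and 13.6. The ratio was lower in nuclei in each library. For each count of *Gm26917*, background droplets held 679, 680, 78.5, 81.3, 111, and 147 counts of *Gm42418*, against 34.6, 28.8, 5.04, 5.51, 7.95, and 6.85 in nuclei. This ratio too was lower in nuclei in each library.

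A cluster of cohort 1 was led by these transcripts although they were left out of the clustering. Its 437 nuclei, 2.79% of Run GH and 4.06% of Sed GH, got no class name, and *Gm42418*, *AY036118*, and *Cmss1* were among its top 10 genes by fold, with *Gm48099*, *Gm19951*, and 5 mitochondrial mRNAs (*mt-Nd5*, *mt-Atp6*, *mt-Nd2*, *mt-Co3*, and *mt-Atp8*). *Gm42418* measured 41932 CPM there in Run GH and 52485 CPM in Sed GH, against 35223 and 42767 CPM in background droplets of the same libraries. *AY036118* (621 and 733 CPM, against 593 and 715 CPM) and *Cmss1* (1070 and 1045 CPM, against 1011 and 963 CPM) were also closer to background droplets than to all nuclei. *Gm26917* measured 53.2 and 108 CPM, against 51.9 and 62.9 CPM in droplets and 204 and 369 CPM in all nuclei. The nuclei of the cluster had medians of 2643.5 and 3514 UMIs and 0.175 and 0.0637% mitochondrial UMIs, against 0.0368 and 0.0157% over all nuclei.

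Across classes *Gm42418* was higher in glia than in neurons. It stood at 2.76 ± 0.53 times its level over all nuclei in oligodendrocytes, 2.60 ± 0.28 in their precursors, 2.43 ± 0.57 in microglia, and 2.38 ± 0.37 in astrocytes, neighbors that did not differ beyond their spread. Astrocytes were above inhibitory neurons (1.16 ± 0.03), and inhibitory above pyramidal neurons (0.91 ± 0.05), in all 6 libraries. Glial nuclei held fewer UMIs, and in counts per nucleus the classes were closer, with means of 54.1 in astrocytes and 41.5 in pyramidal neurons of Run GH in cohort 1 and 1.21 and 1.07 in Run GH of cohort 2. Relative to the background expectation, the count was 1.44 to 2.59 times as large in astrocytes and 1.10 to 1.67 times in pyramidal neurons. *AY036118* ran from 2.51 ± 0.68 in astrocytes to 0.90 ± 0.03 in pyramidal neurons. *Cmss1* ran from 2.21 ± 0.59 in oligodendrocyte precursors to 0.94 ± 0.04 in pyramidal neurons, with astrocytes (1.51 ± 0.18) above inhibitory neurons (1.14 ± 0.08) in all 6 libraries.

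*Gm26917* was higher in astrocytes than in any other class, at 2.49 ± 1.11 times the level over all nuclei, and in all 6 libraries above inhibitory neurons (1.19 ± 0.07). Below these came oligodendrocytes (1.18 ± 0.58), pyramidal neurons (0.95 ± 0.02), oligodendrocyte precursors (0.86 ± 0.54), and microglia (0.65 ± 0.33), with no neighbors differing beyond their spread. The other glial classes were small, with 8 oligodendrocytes, 14 precursors, and 12 microglia in Sed GH of cohort 2. *Gm26917* fell to 0 CPM in precursors and in microglia of cohort 2 at the lowest. In cohort 1 it reached 572 CPM in precursors at the highest, against 574 CPM in astrocytes. Its counts were 20.3 to 58.7 times the background expectation in astrocytes and 20.4 to 35.7 times in pyramidal neurons. Unlike those of *Gm42418*, its counts per nucleus were thus far above those of a droplet of median size. Nuclei hold more UMIs than such droplets, so this measure exceeds 1 even for a gene with an equal share of UMIs in both. In Sed GH of cohort 2 the expected count was 3.98% of the nuclear count, though *Gm26917* measured 69.4 CPM in nuclei and 64.8 CPM in droplets.

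The maternal environment was compared over the 6 libraries, 3 Run and 3 Sed, with edgeR's quasi-likelihood test on counts summed per library. Cohort and housing were further terms, which left 2 residual degrees of freedom, and p-values were adjusted over all genes tested (Benjamini-Hochberg). The SE given with a fold change is its size on the log2 scale divided by the square root of the test's F. It therefore draws on spread shared over all genes and is not the spread of that gene's libraries alone. In all nuclei 0 of the 7 transcripts passed an adjusted p of 0.05, and the test called 0% of 18761 genes, with 1549 genes at an unadjusted p under 0.05 and 73 called by DESeq2. The 4 transcripts of the rRNA group had negative log2 fold changes, meaning lower counts in Run. *Gm26917* had −0.57 ± 0.10 (SE, unadjusted p = 0.00153, adjusted p = 0.594 by edgeR), *Cmss1* −0.36 ± 0.08 (unadjusted p = 0.00334), *Gm42418* −0.45 ± 0.11 (unadjusted p = 0.00644), and *AY036118* −0.82 ± 0.22 (unadjusted p = 0.00983), and the adjusted p was 0.594 for each. Among all genes 8.26% had an unadjusted p under 0.05. The median log2 fold change of the 4 transcripts was −0.51, against −0.004 over all genes tested. The value of *AY036118* was −0.49 without either GH library of cohort 2 and −1.04 without either library of cohort 1. *Malat1* (−0.29 ± 0.14), *Neat1* (−0.12 ± 0.11), and *Miat* (0.11 ± 0.12) had adjusted p-values of 0.628 to 0.7998. Leaving out 1 library put *Neat1* between −0.18 (without Run SI) and −0.045 (without Sed GH of cohort 1), and *Miat* between −0.025 (without Run GH of cohort 2) and 0.25 (without Sed GH of cohort 1), so the sign of *Miat* turned.

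Within pairs of libraries the rRNA group had the same sign throughout. The log2 ratio of Run to Sed for *Gm26917* was −0.85 in the cohort 1 GH pair, −0.33 in the cohort 2 GH pair, and −0.34 in the cohort 2 SI pair. In the same order it was −0.59, −0.46, and −0.13 for *Gm42418*, −0.41, −1.43, and −0.52 for *AY036118*, and −0.33, −0.35, and −0.24 for *Cmss1*. *Malat1* also stood below 0 in the 3 pairs (−0.13, −0.26, and −0.30). *Neat1* (−0.25, −0.01, and 0.10) and *Miat* (−0.20, 0.49, and 0.21) did not keep a sign, and the median of all genes was −0.05, 0.12, and 0.09. Summed over pyramidal or over inhibitory neurons, the same 4 transcripts had negative fold changes, each with an unadjusted p under 0.05 and none called. The test called 0% of 17956 genes in pyramidal neurons, with 1328 (7.4%) at an unadjusted p under 0.05 and 44 called by DESeq2, and 0.0226% of 13263 in inhibitory neurons, with 793 (5.98%) at an unadjusted p under 0.05 and 18 called by DESeq2. All 3 genes called in inhibitory neurons were mitochondrial, *mt-Co3* (1.42 ± 0.13), *mt-Co2* (1.17 ± 0.14), and *mt-Atp6* (1.14 ± 0.15), and higher in Run.

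Calls for the group differed between fits. In all nuclei DESeq2 called *Gm42418* (adjusted p = 0.0298), *AY036118* (0.0196), and *Gm26917* (0.00489), with 0.389% of all genes called. With cohort 2 alone, where 1 residual degree of freedom was left, edgeR called these, *Cmss1*, and *Malat1* (adjusted p from 0.000272 for *Malat1* to 0.00859 for *Gm42418*), and it called 13.6% of all genes. Without Run GH of cohort 1 it called 6 of the 7 transcripts, all but *Neat1*, and 2736 genes (14.1%) in all. Without Sed GH of cohort 1 it called the same 6, and 3142 genes (16%) in all. In the fits without a library of cohort 1, the cohort term takes up the library left there. These fits therefore rest on the 4 libraries of cohort 2 and repeat the comparison of cohort 2 alone, with 1 residual degree of freedom. Without nuclei of unnamed clusters the 4 log2 fold changes were −0.35 to −0.81 and none was called. The mitochondrial share of UMIs moved with the maternal environment too. It was 0.0368 and 0.0157% in Run GH and Sed GH of cohort 1, 0.306 and 0.115% in cohort 2, and 0.308 and 0.162% in Run SI and Sed SI, above in Run in the 3 pairs, and its part in the result was not tested.

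**Figure D4:**
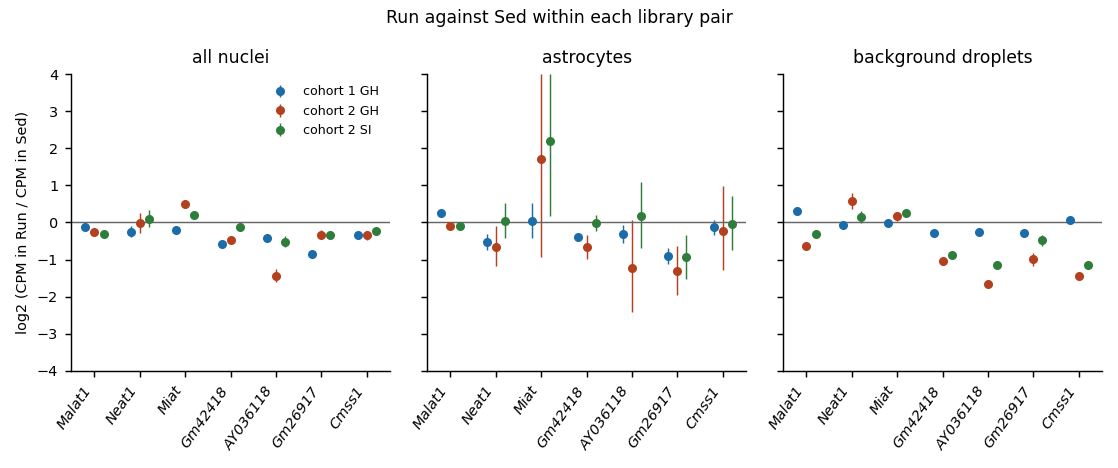
Log2 ratio of Run to Sed CPM in the 3 library pairs (cohort 1 GH, cohort 2 GH, and cohort 2 SI) for the 7 transcripts, in all nuclei, astrocytes, and background droplets, with 95% counting intervals cut at ±4. In all nuclei *Gm42418*, *AY036118*, *Gm26917*, *Cmss1*, and *Malat1* lie below 0 in the 3 pairs, and in astrocytes *Gm26917* lies lowest of the 7 in each, at −0.91, −1.32, and −0.93.

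In astrocytes 1 of the 7 transcripts passed the test, where edgeR called 0.0704% of 8520 genes. *Gm26917* measured 306 CPM in Run GH and 574 CPM in Sed GH of cohort 1. In cohort 2 it measured 122 CPM in Run GH, 304 CPM in Sed GH, 104 CPM in Run SI, and 198 CPM in Sed SI. Every Run library was below its Sed partner, though Run GH of cohort 1 was level with Sed GH of cohort 2 and above Sed SI, so the groups overlapped across cohorts. The values came from 385, 397, 67, 29, 55, and 44 counts, and 93 to 342 astrocytes per library. *Gm26917* fell by 1.03 on the log2 scale in Run (SE 0.18, adjusted p = 6.79e-05 by edgeR's quasi-likelihood test). That test shares information on spread over all genes tested. With 2 residual degrees of freedom, the p-value therefore does not rest on the library pairs of this gene alone. The pair ratios were −0.91, −1.32, and −0.93, with counting intervals that all lay below 0.

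The call was kept when any 1 library was left out, with adjusted p-values of 0.000879 to 0.0317. A library left out also takes its partner out of the Run comparison. These fits thus amount to leaving out each of the 3 pairs, with 1 residual degree of freedom. The call was lost with DESeq2 (adjusted p = 0.134), without the cohort term (1), with nuclei of at least 1000 genes only (0.999), and after subtracting background (0.301), while the fold change stayed between −1.05 and −0.84. The other 5 genes called in astrocytes were mitochondrial mRNAs, *mt-Co3* (1.15 ± 0.16), *mt-Co2* (1.21 ± 0.18), *mt-Co1* (1.02 ± 0.17), *mt-Cytb* (1.19 ± 0.21), and *mt-Atp6* (1.06 ± 0.18), all higher in Run. The 8 pyramidal markers summed to 1195, 1123, 904, 535, 762, and 559 CPM in these astrocytes, above in Run in the 3 pairs, with *Tbr1* at 0 in both Sed libraries of cohort 2 and no other marker at 0. *Gm26917* was lower in pyramidal neurons than in astrocytes, and the part of such counts in the result was not tested.

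**Figure D5:**
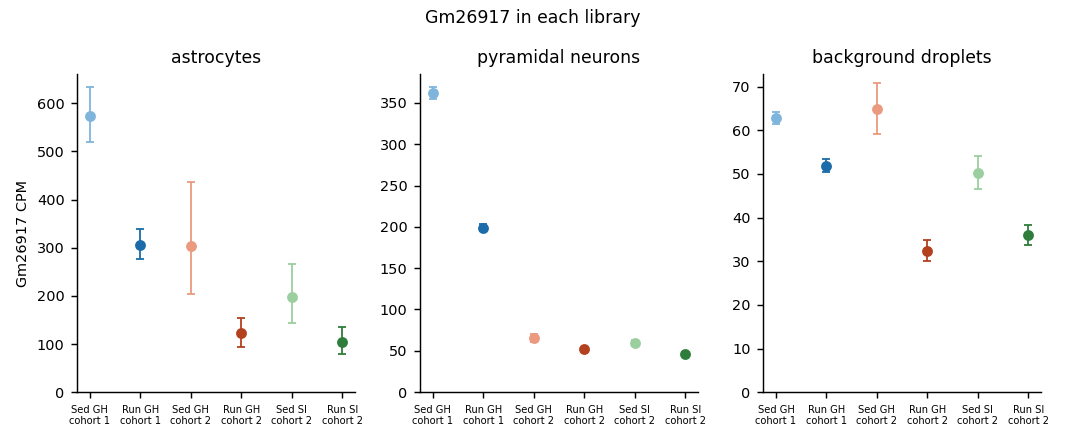
*Gm26917* in CPM with its 95% Poisson counting interval in each of the 6 libraries, in astrocytes, pyramidal neurons, and background droplets. In astrocytes each Run library lies below the Sed library of its pair, from 306 against 574 CPM in cohort 1 to 104 against 198 CPM in the SI pair.

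The other transcripts were not called in astrocytes. *Gm42418* had −0.38 ± 0.12 (unadjusted p = 0.00166, adjusted p = 0.404 by edgeR) and *Neat1* −0.43 ± 0.17 (unadjusted p = 0.0114, adjusted p = 0.645). Astrocyte *Neat1* was 297 and 429 CPM in Run GH and Sed GH of cohort 1, 267 and 420 CPM in cohort 2, and 253 and 248 CPM in the SI pair, so it was lower in Run in both GH pairs and not in the SI pair. *Miat* had 0.36 ± 0.29, a value that ran from 0.14 without Run SI to 1.99 without Sed GH of cohort 1 and rested on 1 and 2 counts in the Sed libraries of cohort 2. The log2 fold change was −0.34 ± 0.21 for *AY036118*, −0.15 ± 0.19 for *Cmss1*, and 0.00 ± 0.08 for *Malat1*. With at least 1000 genes per nucleus that of *Gm42418* was 0.063.

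In background droplets the rRNA group also had negative fold changes, except that *Gm26917* was at 0.18 when only barcodes under 100 UMIs were summed. Their log2 fold changes for Run were −0.83 ± 0.47 for *Gm42418*, −1.11 ± 0.25 for *AY036118*, −0.66 ± 0.15 for *Gm26917*, and −0.94 ± 0.28 for *Cmss1* (adjusted p = 0.995 for each by edgeR). The test called 0% of 18097 genes there, with 708 (3.91%) at an unadjusted p under 0.05 and 5 (0.0276%) called by DESeq2, *AY036118* among them (adjusted p = 0.00486). With no filter on low counts edgeR called *AY036118*, *Gm26917* (adjusted p = 0.00150), and *Cmss1* (adjusted p = 0.00993), and 105 of 27327 genes in all (0.384%). Without Run GH of cohort 1 it called these, *Gm42418*, and *Malat1*, and 1927 genes in all (10.4%), and without Sed GH of cohort 1 the same 5 and 1869 genes (10.1%). As in all nuclei, the fits without a library of cohort 1 rest on cohort 2 alone, with 1 residual degree of freedom. In droplets *Gm42418* was 35223 CPM in Run GH against 42767 CPM in Sed GH of cohort 1, 2549 against 5267 CPM in cohort 2, and 3987 against 7361 CPM in the SI pair. Run was lower in each pair. *Cmss1* was 1011 against 963 CPM in cohort 1, where Run was not lower, and 169 against 458 CPM and 258 against 576 CPM in cohort 2.

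Housing was compared in the same fits, with 4 GH and 2 SI libraries, both SI libraries in cohort 2, so it shares libraries with the maternal comparison. The cohort term takes up the level of the cohort 1 libraries, which are all GH. The housing effect of the main fit thus rests on the 4 libraries of cohort 2. For housing 0 of the 7 transcripts passed in any sum of the 6 libraries, and the test called 0% of genes in all nuclei, pyramidal neurons, inhibitory neurons, and background droplets and 0.0235% in astrocytes. An unadjusted p under 0.05 by edgeR was found for 170 genes in all nuclei, 177 in pyramidal neurons, 170 in inhibitory neurons, and 234 in droplets, and DESeq2 called 1 in pyramidal neurons and 0 in the others. *Gm42418* had 0.33 ± 0.14 (unadjusted p = 0.0481, adjusted p = 1.00 by edgeR), with log2 ratios of SI to GH of 0.49 in Run and 0.16 in Sed. Its fold change was 0.15 without Run SI and 0.51 without Sed SI, and it passed without Sed GH of cohort 1 (adjusted p = 0.0186), where 0.147% of genes were called, but not without Run GH of cohort 1 (adjusted p = 0.156) or with cohort 2 alone (adjusted p = 0.667). The fits that leave out cohort 1 or a library of it draw the housing effect from the same 4 libraries as the main fit. Each of these reduced fits has 1 residual degree of freedom, so they are not separate checks. The other transcripts had log2 fold changes of −0.18 to 0.13 in all nuclei. In background droplets *Gm42418* was also above in SI, by 0.65 in Run and 0.48 in Sed.

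Lists of genes that share a place or a process with the 7 transcripts had medians near that of all genes (−0.004) for the maternal environment in all nuclei, and edgeR called 0 genes of each. The 14 other nuclear noncoding RNAs had a median log2 fold change of 0.03, with 2 at an unadjusted p under 0.05 by edgeR. In this list and in each of those that follow, the share under 0.05 was above the 8.26% of all genes. No list was tested as a set. The median was 0.01 for 15 genes of paraspeckle proteins (3 under 0.05), 0.02 for 20 of nuclear speckle proteins (5), −0.03 for 43 of rRNA synthesis and processing (10), and −0.02 for 7 of 8 genes that overlap or neighbor the transcripts and could be tested (1). The 13 mitochondrially encoded mRNAs had a median of 1.05, with 10 under 0.05 and 0 called in all nuclei, while 5 of the 12 that could be tested in astrocytes were called, all higher in Run.

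Likeness of pattern was measured as Pearson's r of log2(CPM + 1) over 81 sums of a class in a library, 29 from cohort 1 and 52 from cohort 2, among 12826 genes. The sums of a library share its depth and background, so r is a description. *Neat1* was most like *Gramd3* (0.91), *Usp54* (0.91), and *Csrp1* (0.89), with 0.91 to 0.93 within cohorts. *Miat* was most like *Rnf165* (0.89), *Rasgrf1* (0.87), and *Kalrn* (0.87), with 0.78 to 0.89 within cohorts. *Malat1* was most like *Cox7c* (0.89), *Rpl6* (0.87), and *Dnaja2* (0.87), where r was at most 0.36 within cohorts, so that likeness rested on the gap between cohorts.

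Over all sums, the 2 genes most like each member of the rRNA group were other members, a ranking that takes in the gap between cohorts. *Gm42418* and *Cmss1* had r = 0.98 over all sums, 0.98 within cohort 1, and 0.82 within cohort 2, and *Gm42418* and *AY036118* had 0.95, 0.97, and 0.69. *Gm26917* had 0.89 with *Gm42418* over all sums but 0.38 and 0.32 within cohorts. *Neat1*, outside the group, had 0.31 with *Gm42418* over all sums but 0.72 within cohort 1 and 0.82 within cohort 2. *Gm48099*, outside the group, came next in likeness to *Gm42418* (0.90) and to *Cmss1* (0.88), above *Gm26917* (0.89 and 0.86). Within cohort 2, *Gm48099* had −0.15 and −0.18 with them. Across single pyramidal nuclei thinned to 1000 UMIs the mean r of *Gm42418* over the 6 libraries was 0.06 with *AY036118* (−0.011 to 0.14), 0.06 with *Cmss1* (0.0083 to 0.15), and 0.05 with *Gm26917* (−0.0058 to 0.14). In each case both libraries of cohort 1 were above the 4 of cohort 2. With the summed mitochondrial mRNAs it was 0.08 (0.038 to 0.12).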

How the data were processed

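Single-nucleus RNA-seq was run on 6 libraries of pooled nuclei. Per the labels and methods, the authors used the Chromium Single Cell 3′ kit, version 3, and Cell Ranger 6.0.0 with mm10 and introns included, and deposited raw UMI counts of all barcodes. Groups came from sample titles. The 7 transcripts and the gene lists were chosen with earlier results of these data known. Named genes were the transcripts, listed genes that passed a test (at most 4 a list, where the last of the 5 mitochondrial mRNAs called in astrocytes was named after its value was seen), and the 3 genes most like each transcript.

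A library's UMI minimum was the 99th percentile of its largest barcodes divided by 10. Doublets were marked (56 to 671 nuclei per library) and removed only as an alternative. Each cohort was clustered apart with scanpy 1.11.5 (Pearson residuals of 3000 genes, 35 components, 20 neighbours, Leiden resolution 0.6, or 1.5 for non-neuronal nuclei) in Python 3.11.15. Summed counts were tested with edgeR 4.0.16 in R 4.3.3 (TMM, filterByExpr) and, as an alternative, DESeq2 1.42.0. The cohort, stated in the titles, was the replicate block. p-values measure the spread between libraries, with information on spread shared over all genes tested. The fit was tested on simulated data. Intervals are exact 95% Poisson or binomial and cover counting error only. Neighboring classes were said to differ beyond their spread where all 6 libraries had the order and the mean difference exceeded its SD. Sequences were read from the mm10 transcripts. Alternatives are given in the closing section. Leaving out unnamed nuclei and using cohort 2 alone were chosen after seeing the data.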

Additional observations from a re-analysis of the deposited data

Results flagged for a closer look

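The following log2 ratios had opposite signs in groups set side by side. Each ratio compares 1 library with 1 library, and the differences between them were not tested. *Miat* in all nuclei had a Run to Sed ratio of −0.20 in the cohort 1 GH pair, 0.49 in the cohort 2 GH pair, and 0.21 in the cohort 2 SI pair, so the pairs of cohort 2 went the other way from that of cohort 1. *Malat1* in background droplets had ratios of 0.30, −0.63, and −0.31 in the same order. *Cmss1* in background droplets had 0.070, −1.44, and −1.16. For both, the cohort 1 pair was above 0 and the pairs of cohort 2 below it. For housing in cohort 2, *Miat* had an SI to GH ratio in all nuclei of −0.10 in Run and 0.18 in Sed. *AY036118* had 0.60 in Run and −0.31 in Sed.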

How the results depend on the processing

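In all nuclei every transcript of the rRNA group stayed below 0 for the maternal environment under each alternative run. Of the classes tested, astrocytes had the fewest nuclei, 93 in Sed GH of cohort 2. With 1 library per group and cohort, the spread between mice was not measured, and a library left alone in its arm is assumed to vary like the others. Without TMM factors the median gene in background droplets was at 0.11 for the maternal environment.

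For the maternal environment, called genes were 10 in all nuclei, 9 in pyramidal neurons, 74 in inhibitory neurons, and 105 in background droplets with no filter on low counts, and 7 in inhibitory neurons and 5 in droplets for housing. With cohort 2 alone they were 2452, 2829, 683, 32 (astrocytes), and 2379, and for housing 38 in pyramidal neurons, 12 in inhibitory neurons, and 69 in droplets. DESeq2 called 73, 44, 18, 2, and 5, and for housing 1 in pyramidal neurons and 0 in astrocytes. Without the replicate block of cohort, 0 were called in inhibitory neurons and, for either term, in astrocytes, and the housing log2 fold change of *Gm42418* in all nuclei was −3.60. Inhibitory neurons had 5 calls without TMM, 12 with at least 1000 genes, and 0 after subtracting background. Astrocytes had 22 without a UMI minimum and 0 with at least 1000 genes or background subtracted, and 1 for housing under each of these and with doublets removed.

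Leaving out 1 library gave 0 to 3142 calls in all nuclei, 0 to 3100 in pyramidal neurons, 3 to 633 in inhibitory neurons, 4 to 29 in astrocytes, and 10 to 1927 in droplets, the highest without Run GH or Sed GH of cohort 1, and for housing 0 to 29, 0 to 83, 0 to 13, 1 to 4, and 0 to 27. Each such fit had 1 residual degree of freedom, and its maternal comparison also lost the other library of the pair. Leaving out 1 library put *Miat* in all nuclei between −0.025 and 0.25, reaching −0.025 without Run GH and −0.022 without Sed GH of cohort 2. Signs also turned for *Neat1* in all nuclei (0.011 with no mitochondrial limit and 0.014 with at least 1000 genes), *Gm42418* in astrocytes (0.063 with at least 1000 genes), and *Gm26917* in droplets (0.18 with barcodes under 100 UMIs).

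Mean log2 ratios moved by over 1 SD as follows. Subtracting background gave 6.80, 2.21, and 1.94 for astrocytes over pyramidal neurons in *Neat1*, *Gm42418*, and *AY036118*, −4.66 and −3.64 for nuclei over background in *Gm42418* and *AY036118*, and −0.75 and −0.39 for Run over Sed in *Gm42418* and *Cmss1*. Dropping the UMI minimum gave −0.14 for *Malat1* Run over Sed, 5.67 for *Neat1* astrocytes over pyramidal neurons, and 0.48 for *Miat* nuclei over background. Barcodes under 100 UMIs gave −0.41, −2.15, −0.89, and −1.34 for nuclei over background in *Miat*, *Gm42418*, *Gm26917*, and *Cmss1*. At least 1000 genes gave 0.073 for *Malat1* SI over GH, and thinning gave 0.18 for *Neat1* Run over Sed. With all UMIs the correlations of *Gm42418* with *AY036118*, *Cmss1*, and *Gm26917* were 0.17, 0.20, and 0.23. No mean over the 6 libraries was given for astrocytes over pyramidal neurons where at least 1 library had no count left, which held for *Miat* after thinning, with at least 1000 genes, and with background subtracted, and for *AY036118* and *Cmss1* with at least 1000 genes.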
